A study of Mus musculus with 6 samples.

Results

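Expression of 9 genes of the secreted extracellular matrix was followed across mouse intestinal organoids: Fn1, Thbs1, Tnc, Col4a1, Col4a2, Igfbp3, Igfbp7, Tgfbi and Hspg2. They were taken by symbol from the 31227 Ensembl genes of the count table, and all 9 were found there. The organoids are small cultures of intestinal epithelium kept in medium with EGF (50 ng/ml), Noggin (100 ng/ml) and R-spondin1 (500 ng/ml), which all groups shared. Bulk RNA was sequenced from 2 libraries of wild type organoids (WT), 2 of Smad4-deficient organoids (Smad4 KO) and 2 of Smad4-deficient organoids given TGF-β at 0.5 nM (Smad4 KO+TGFb). Every title carries 48 h, and the treatment text can be read as 48 h in all or as 48 h followed by further days, so time in culture may differ as well. The labels do not give the strain or age of the animals, the way Smad4 was inactivated, or whether replicates came from separate cultures or animals. The p-values therefore measure only the spread between these libraries, which may be technical. TGF-β-treated WT organoids were not analysed here, and a difference in organoid line or origin cannot be told apart from genotype.

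The extracellular matrix is the protein scaffold that cells secrete around themselves. Epithelia rest on a basement membrane, a thin sheet built from laminins, type IV collagen, nidogens and the proteoglycan perlecan, and they bind it through integrins. Fibronectin joins integrins to other matrix fibres and is best known from connective tissue, wounds and cells exposed to TGF-β. Matricellular proteins such as thrombospondin 1 and tenascin C sit in the matrix and modify how cells attach and signal, without forming a main part of the scaffold. TGF-β is a classical inducer of matrix genes, and Smad4 is the common partner of the SMAD proteins that carry its signal to the nucleus.

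Libraries held 40.55 to 50.7 M units (M, 1e6), and replicates correlated at 0.9705 to 0.9757 across the genes tested (Pearson, log2 CPM). Low values piled up at multiples of 4 units, so each sequenced fragment was taken to add about 4, which gives 10.1 to 12.7 M fragments per library. The unit of level is CPM, counts per 1e6 after TMM scaling, and ± is the SD over 2 libraries unless SE is written. Smad4 itself gave 99.4 and 110 CPM in the wild type and 21.7 to 29.5 CPM over the 4 libraries labelled Smad4-deficient; the count covers the whole gene and shows no deleted part. The 7 intestinal epithelial markers were present in every group, with Krt8 the keratin counted most. Their summed level ran from 6920 to 7030 CPM in WT, 9810 to 9960 in Smad4 KO and 13900 to 14100 in Smad4 KO+TGFb. The markers did not move alike. In that order, means were 2214, 3486 and 5132 CPM for Krt8 and 1106, 2087 and 3501 for Krt19. Krt18 gave 720.8, 713.9 and 1208 and Cdx2 205.8, 193.1 and 191, while Epcam, Cdh1 and Vil1 were higher at each step. The part of this shift in the results was not tested. Of 8 fibroblast markers, Col1a2, Col3a1, Dcn, Lum and Des were at 0 in all libraries. Col1a1 was at 0 and 0.297 CPM in WT, at 0 in Smad4 KO and at 0.0925 and 0.251 CPM with TGF-β. Pdgfrb gave 1.375 and 1.92 CPM in WT, 0.713 and 0.743 in Smad4 KO and 0.208 and 0.0912 with TGF-β. The list summed to 1.38 to 2.4 CPM in WT, 0.713 to 0.842 in Smad4 KO and 0.301 to 0.524 in Smad4 KO+TGFb. Of 7 endothelial markers, Kdr, Cldn5, Cdh5 and Emcn were at 0 throughout, and the list summed to 0.382 to 0.662, 0.595 to 0.764 and 0.912 to 1.41 CPM in the same order. In that order, means were 0.388, 0.58 and 0.447 CPM for Pecam1, 0.0764, 0 and 0.3225 for Tie1, and 0.057, 0.0991 and 0.392 for Tek. The 7 leukocyte markers, with Adgre1 at 0 throughout, summed to 1.76 to 2.08, 2.65 to 2.73 and 2.36 to 3.15 CPM. Means were 0.17, 0.7545 and 1.21 CPM for Csf1r, 1.7, 1.58 and 1.2 for Itgam, and 0, 0.3255 and 0.195 for Cd52. Cd52 passed higher in Smad4 KO against WT (edgeR adjusted p = 0.0339) on 6 and 0 fragments. In treated against WT, 2 of the 3 leukocyte markers tested passed higher and 1 of the 2 fibroblast markers tested passed lower. Of all genes tested, 20.7% passed higher and 19% lower in that comparison. The part of these other cell types in the results was not tested.

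Upstream sequence is shown for the 3 genes with a 250-base stretch that overlapped no annotated exon, Igfbp7, Igfbp3 and Tnc. They were not picked by level. Igfbp7 rose with TGF-β, no comparison passed for its namesake Igfbp3, and Tnc was at 0 in 4 libraries. Each run holds the 250 bases before the gene's start (RefSeq, GRCm38.p6), 5′ to 3′ on the gene's own strand, with CG dinucleotides in capitals, a feature chosen after the sequences were seen. The Igfbp7 stretch is chr5:77408046-77408295 on the minus strand, that of Igfbp3 is chr11:7213924-7214173 on the minus strand, and that of Tnc is chr4:64047016-64047265 on the minus strand.
Igfbp7: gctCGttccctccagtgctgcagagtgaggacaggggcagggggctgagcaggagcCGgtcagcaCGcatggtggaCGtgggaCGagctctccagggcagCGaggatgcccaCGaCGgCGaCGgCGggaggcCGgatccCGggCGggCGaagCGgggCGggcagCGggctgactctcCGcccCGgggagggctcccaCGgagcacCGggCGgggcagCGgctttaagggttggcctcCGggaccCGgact
Igfbp3: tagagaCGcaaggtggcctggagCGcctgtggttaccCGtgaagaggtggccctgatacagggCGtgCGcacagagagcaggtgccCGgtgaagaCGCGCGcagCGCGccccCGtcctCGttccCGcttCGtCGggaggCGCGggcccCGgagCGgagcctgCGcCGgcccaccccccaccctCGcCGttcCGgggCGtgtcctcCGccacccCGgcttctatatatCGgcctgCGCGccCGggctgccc
Tnc: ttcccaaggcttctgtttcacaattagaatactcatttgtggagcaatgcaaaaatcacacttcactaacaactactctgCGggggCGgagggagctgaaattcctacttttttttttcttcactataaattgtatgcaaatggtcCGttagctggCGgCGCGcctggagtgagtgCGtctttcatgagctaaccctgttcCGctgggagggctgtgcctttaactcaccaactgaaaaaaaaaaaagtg
The Igfbp7 and Igfbp3 stretches held 26 and 32 CG dinucleotides and the Tnc stretch held 8, against a median of 6 and an upper quartile of 16 over 32851 RefSeq promoters of this length. Both IGF-binding protein genes were above the upper quartile and Tnc was below it. Stretches not shown, which overlap exons, held 31 (Col4a1), 26 (Col4a2), 20 (Hspg2) and 15 (Tgfbi), and a second Tnc stretch held 10. Fn1 and Thbs1 had no entry among the RefSeq promoters and were not searched, which left 7 of the 9 genes. Their 250-base stretches were searched on both strands for GGAATG (bound by TEAD factors), TGANTCA (bound by AP-1) and GTCTAGAC (the palindromic SMAD element), and none of the 7 genes had a match. These letters occurred in 12.6%, 6.75% and 0.167% of all promoters, and their absence from a short window says nothing about the factors.

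Fibronectin (Fn1, ENSMUSG00000026193, chromosome 1, 71585520 to 71653200 on the minus strand, GRCm38) was close to absent from organoids without TGF-β and well expressed with it. Its level was 0 and 0.0913 CPM in WT and 41.1 and 37.9 CPM in Smad4 KO+TGFb, with untreated Smad4 KO between these at 0.305 and 0.595 CPM. The groups did not overlap, and both treated libraries stood far above the other 4. Against Smad4 KO, the treated group was 86.9-fold higher (means of 39.5 ± 2.26 and 0.45 ± 0.205 CPM, log2 fold change 6.44 ± 0.425 SE, edgeR adjusted p = 0.000233). The Smad4 KO value rests on 9 fragments, with a 95% counting interval of 45.8 to 192 for the ratio of counts. On the opposite strand, 2.5% of the Fn1 exon bases overlap Apol7d, and reads there could not be told apart.

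WT libraries held 1 Fn1 fragment between them, so comparisons with WT carry wide counting intervals. The ratio of treated Smad4 KO to WT counts was 949, with an interval of 170 to 37500 (edgeR adjusted p = 4.04e-05). Without added TGF-β, the ratio of Smad4 KO to WT counts was 10.9, with an interval of 1.51 to 476 (edgeR adjusted p = 0.0203). This last call did not hold in every fit: its adjusted p was 0.0525 without WT replicate 1, 0.0904 without Smad4 KO replicate 2 and 0.141 when the 4 libraries compared were fitted alone, within a range of 8.7e-05 to 0.141 over all alternatives. Its fitted log2 fold change of 3.35 moved to 2.27 without WT replicate 1 and to 7.32 without WT replicate 2, where the remaining WT library was at 0.

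**Figure D1:**
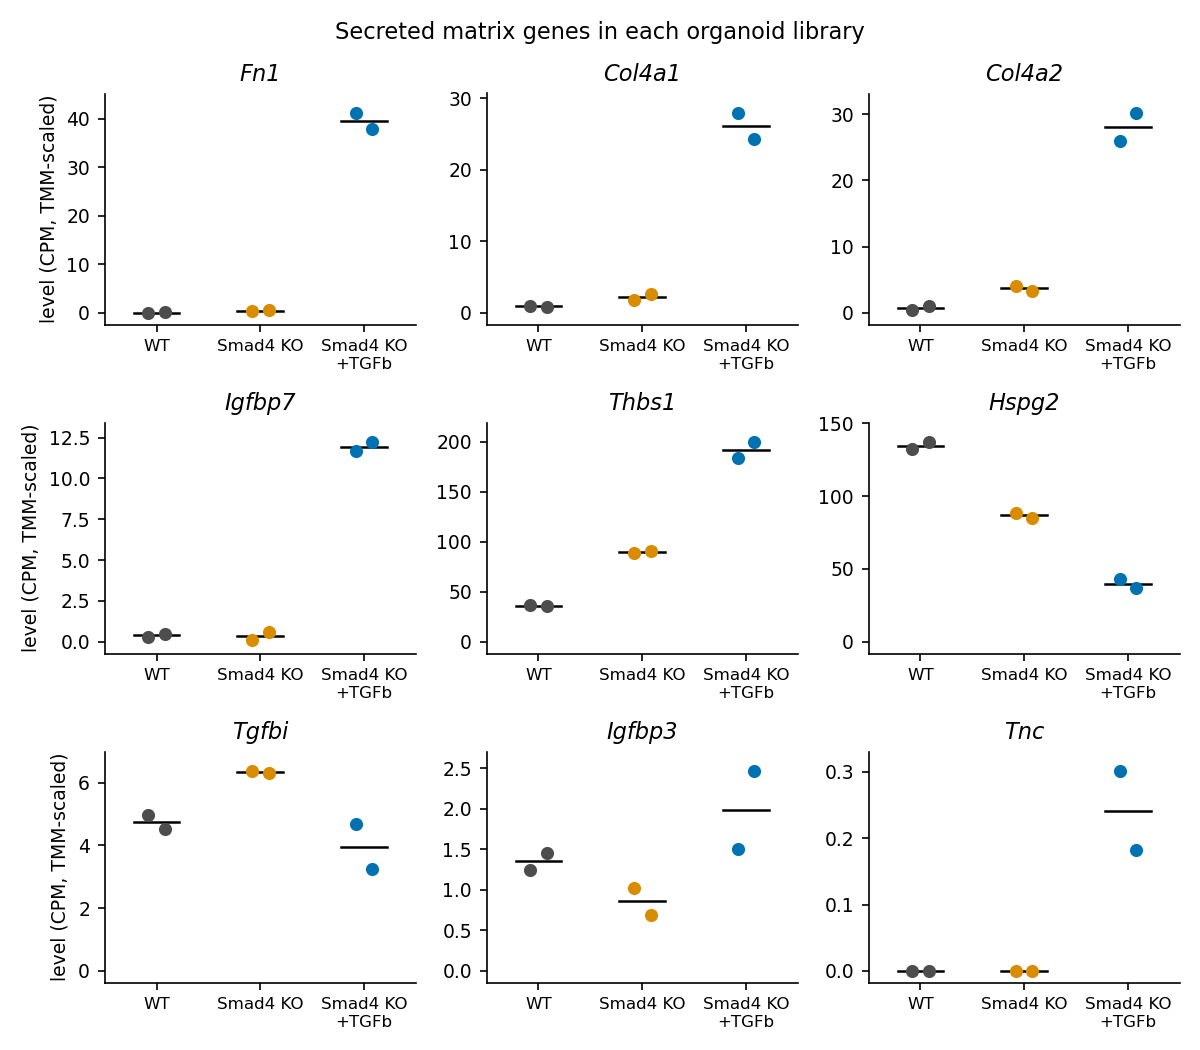
Level of each of the 9 genes in CPM (vertical axes, one scale per panel) in WT, Smad4 KO and Smad4 KO+TGFb organoids; each point is a library and each bar the mean of 2. Fn1, Col4a1, Col4a2 and Igfbp7 sit near the foot of the axis in both untreated groups and high in the treated group, with Fn1 at 39.5 CPM, while Hspg2 steps down from 134.5 CPM in WT to 39.9 CPM.

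The type IV collagen chains α1 and α2, which wind together into the network of the basement membrane, both rose from WT to Smad4 KO and again with TGF-β. Col4a1 (ENSMUSG00000031502, chromosome 8, 11198423 to 11312826, minus strand) gave 0.898 and 0.867 CPM in WT, then 1.83 and 2.65 in Smad4 KO, then 27.9 and 24.3 in Smad4 KO+TGFb. Col4a2 (ENSMUSG00000031503, chromosome 8, 11312805 to 11449287, plus strand) gave 0.458 and 1.09 CPM in WT, then 4.07 and 3.29 in Smad4 KO, then 26 and 30.1 in Smad4 KO+TGFb. For both chains the 3 groups were separate from each other, in the order WT, Smad4 KO, treated Smad4 KO.

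With TGF-β, Col4a1 was 11.6-fold higher than in Smad4 KO (26.1 ± 2.54 against 2.24 ± 0.579 CPM, log2 fold change 3.54 ± 0.216 SE, edgeR adjusted p = 0.000173). Col4a2 was 7.6-fold higher (28 ± 2.92 against 3.68 ± 0.549 CPM, log2 fold change 2.93 ± 0.33 SE, edgeR adjusted p = 0.00203). Untreated Smad4 KO organoids were already 2.54-fold above WT for Col4a1 (edgeR adjusted p = 0.00607) and 4.81-fold above WT for Col4a2 (adjusted p = 0.00496). The Col4a1 difference did not pass when the 4 libraries compared were fitted alone (adjusted p = 0.0568). The Col4a2 difference was 7.99-fold without WT replicate 2. Treated organoids stood 29.4-fold above WT for Col4a1 and 36.6-fold for Col4a2 (edgeR adjusted p = 2.08e-05 and 0.000114), the latter 60.8-fold without WT replicate 2.

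The genes of this pair lie head to head: their annotated starts are 21 bases apart and their first exons overlap by 22 bases on opposite strands. Because the strand setting of the counting is not known, reads in those bases could not be told apart. They make up 0.295% of the exon length of Col4a1. Of the Col4a2 exon bases, 65, or 0.982%, overlap Col4a1 or Gm15419 on the opposite strand. Per kb of exon, the ratio of Col4a1 to Col4a2 levels was 0.702 and 1.74 in the WT libraries, 0.399 and 0.713 in Smad4 KO and 0.952 and 0.715 in Smad4 KO+TGFb. The WT libraries overlapped both other groups in this ratio, the Smad4 KO and treated libraries did not overlap but came as close as 0.713 and 0.715, and the widest spread was in WT, where the pair rests on 21 and 18 fragments.

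Perlecan (Hspg2, ENSMUSG00000028763, chromosome 4, 137468769 to 137570630, plus strand), the large heparan sulphate proteoglycan of the same basement membrane, went the opposite way. Its levels were 132 and 137 CPM in WT, 88.6 and 85.1 in Smad4 KO, and 42.9 and 36.9 in Smad4 KO+TGFb, with no overlap between groups. Smad4 KO organoids were 1.55-fold below WT (log2 fold change -0.63 ± 0.081 SE, edgeR adjusted p = 0.00197). TGF-β-treated organoids were lower again, 2.18-fold below Smad4 KO (log2 fold change -1.12 ± 0.083 SE, edgeR adjusted p = 0.000369). They were 3.37-fold below WT (edgeR adjusted p = 2.06e-05). All of these calls held in each alternative fit, with adjusted p-values no higher than 0.016.

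Thrombospondin 1 (Thbs1, ENSMUSG00000040152, chromosome 2, 118111876 to 118127133, plus strand), a matricellular glycoprotein known for activating latent TGF-β and restraining vessel growth, was the most strongly counted of the genes that rose. Its levels were 37 and 35.5 CPM in WT, 88.5 and 91 in Smad4 KO, and 184 and 199 in Smad4 KO+TGFb. Each group lay wholly above the one before it. The difference from Smad4 KO to the treated group was 2.14-fold (log2 fold change 1.09 ± 0.062 SE, edgeR adjusted p = 0.000135), and from WT to Smad4 KO it was 2.48-fold (log2 fold change 1.31 ± 0.063 SE, edgeR adjusted p = 2.91e-05). Treated organoids stood 5.29-fold above WT (edgeR adjusted p = 2.09e-06). Of the Thbs1 exon bases, 3.42% overlap Gm29233 on the opposite strand.

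Tenascin C (Tnc, ENSMUSG00000028364, chromosome 4, 63959785 to 64047015, minus strand), a matricellular protein of developing and wounded tissue, was barely detected. It was at 0 in both WT and both Smad4 KO libraries and at 0.301 and 0.182 CPM with TGF-β, which is 5 fragments over the group. Set against a floor of 3 fragments over a group at 0, the treated level was 1.6 times the floor of Smad4 KO and 1.93 times that of WT. With the counting error of those 5 fragments, the 95% interval of the ratio began at 0.838 against Smad4 KO, which includes no difference, and at 1.01 against WT. The gene lay below the filter on low counts and was not tested; when all genes with any count were kept, its adjusted p in edgeR was 0.346 against Smad4 KO and 0.22 against WT. At this depth a difference in Tnc was not detectable by the test. Of its exon bases, 2.26% overlap 8030451A03Rik on the opposite strand. Floors and counting intervals cover counting error only.

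Among the proteins named for binding insulin-like growth factors, Igfbp7 (ENSMUSG00000036256, chromosome 5, 77349240 to 77408041, minus strand), a matrix-bound relative with weak affinity for these factors, rose sharply with TGF-β. Its levels were 0.306 and 0.502 CPM in WT, 0.102 and 0.595 in Smad4 KO, and 11.7 and 12.2 in Smad4 KO+TGFb. The untreated groups overlapped, and both treated libraries stood far above them. The treated group was 33.8-fold above Smad4 KO (11.9 ± 0.379 against 0.348 ± 0.349 CPM, log2 fold change 5.08 ± 0.645 SE, edgeR adjusted p = 0.00331) and 29.6-fold above WT (adjusted p = 0.00134). The Smad4 KO value rests on 7 fragments, and the difference was 20-fold without Smad4 KO replicate 1 and 114-fold without Smad4 KO replicate 2. Between Smad4 KO and WT the log2 fold change was -0.19 ± 0.68 SE (edgeR adjusted p = 0.867), and its sign turned without WT replicate 2 or Smad4 KO replicate 1. Of the Igfbp7 exon bases, 85, or 7.03%, overlap Polr2b on the opposite strand, and reads there could not be assigned.

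Igfbp3 (ENSMUSG00000020427, chromosome 11, 7206086 to 7213923, minus strand), the main carrier of insulin-like growth factors in blood, passed in none of the comparisons. Its levels were 1.24 and 1.46 CPM in WT, 1.02 and 0.694 in Smad4 KO, and 1.5 and 2.46 in Smad4 KO+TGFb. The treated libraries were both above the Smad4 KO libraries, with a log2 fold change of 1.21 ± 0.443 SE (edgeR adjusted p = 0.127). Smad4 KO against WT gave -0.66 ± 0.443 SE (edgeR adjusted p = 0.317), on 17 and 32 fragments. Treated Smad4 KO against WT gave 0.55 ± 0.432 SE (edgeR adjusted p = 0.361).

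Tgfbi (ENSMUSG00000035493, chromosome 13, 56609523 to 56639562, plus strand), a secreted adhesion protein first named for its induction by TGF-β, passed in none of the comparisons either. Levels were 4.96 and 4.52 CPM in WT, 6.36 and 6.32 in Smad4 KO, and 4.67 and 3.24 in Smad4 KO+TGFb. Both treated libraries were below both Smad4 KO libraries, with a log2 fold change of -0.68 ± 0.233 SE (edgeR adjusted p = 0.106). For Smad4 KO against WT the value was 0.42 ± 0.231 SE (edgeR adjusted p = 0.227), and for the treated group against WT, whose libraries overlapped, it was -0.26 ± 0.233 SE (edgeR adjusted p = 0.422). The groups held 86 to 126 fragments each. The 95% counting interval of the ratio was 0.469 to 0.828 for treated against Smad4 KO and 1.03 to 1.74 for Smad4 KO against WT. Counting error alone thus did not span a ratio of 1, but these intervals are not adjusted for the number of genes. The edgeR test also takes in the spread between libraries and was adjusted over all genes tested, and it did not pass. Which of these differences set the outcome was not tested.

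**Figure D2:**
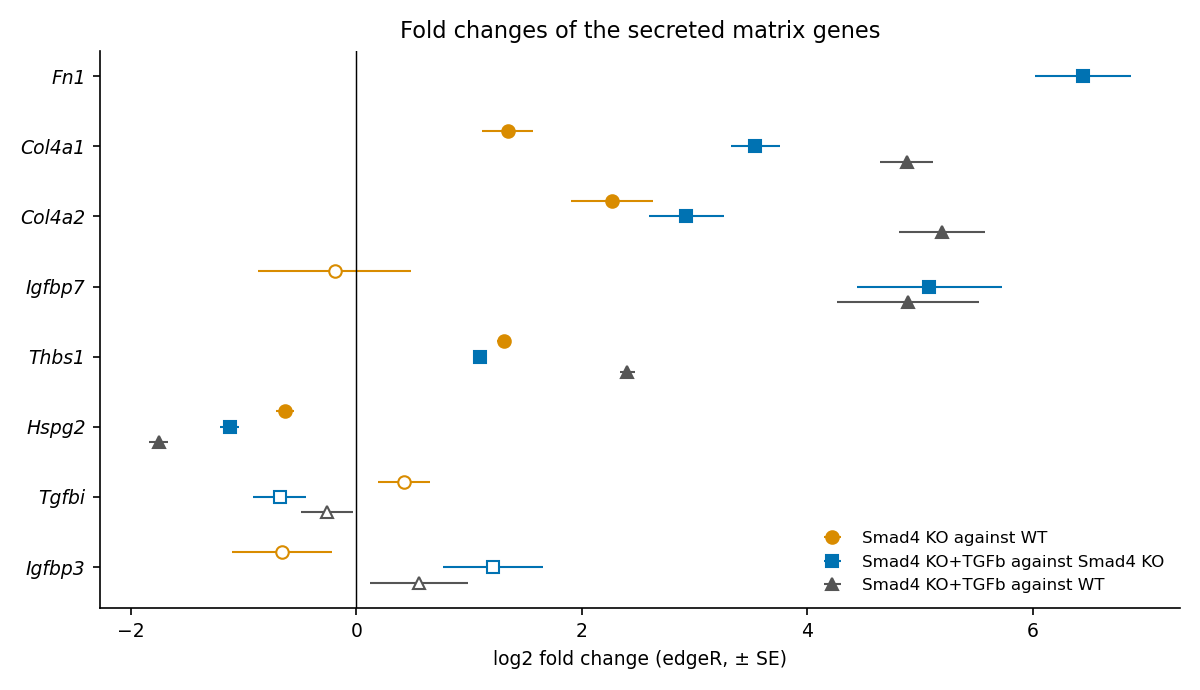
Log2 fold change with its SE (horizontal axis, edgeR) for each tested gene in the 3 comparisons; filled symbols passed at an adjusted p under 0.05 and open symbols did not. Fn1 is drawn for Smad4 KO+TGFb against Smad4 KO alone, because WT held 1 fragment, and Tnc was not tested; Fn1 lies farthest right at 6.44 and Hspg2 is the gene whose 3 filled symbols lie left of 0.

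Of the 8 genes tested with TGF-β against Smad4 KO, 5 rose (Fn1, Igfbp7, Col4a1, Col4a2 and Thbs1), 1 fell (Hspg2) and 2 did not pass. Over all 15503 genes tested, 16.3% passed in that comparison, 7.78% higher and 8.48% lower. For Smad4 KO against WT, 4 of the 8 rose (Col4a2, Fn1, Col4a1 and Thbs1), 1 fell (Hspg2) and 3 did not pass, against 30.3% of all genes passing, 16.9% higher and 13.4% lower. For the treated group against WT, 5 rose, 1 fell and 2 did not pass, against 39.7% of all genes passing, 20.7% higher and 19% lower. Libraries of all genes lay apart between the groups, higher and lower, in 27.7% and 29.1% of cases with TGF-β against Smad4 KO, 32.2% and 34.5% for Smad4 KO against WT, and 35% and 37.3% for treated against WT. The median log2 fold change of the 8 was 2.07, 0.86 and 3.64 in these comparisons, and that of all genes was -0.01, -0.02 and -0.02. The genes were chosen with earlier results of these data known, so these counts and medians describe them and do not test the set. Each group enters a pair of these comparisons, so their values are not independent. In bulk RNA, more cells that make a transcript and more transcript per cell cannot be told apart.

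Levels of different genes were compared per kb of exon. In WT organoids Hspg2 was highest at 9.4 ± 0.232 CPM per kb (SD, n = 2), followed by Thbs1 at 5.97 ± 0.171 and Tgfbi at 1.26 ± 0.0838. Igfbp3 (0.431) and Igfbp7 (0.334) came next with overlapping libraries, then Col4a1 (0.118) and Col4a2 (0.117), which also overlapped, and last Fn1 (0.00391) and Tnc at 0. In Smad4 KO, Thbs1 (14.8 ± 0.284 CPM per kb) stood above Hspg2 (6.07 ± 0.17), and Col4a1, Igfbp7 and Igfbp3 could not be ordered beyond their spread.

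The order differed most in the treated group. Thbs1 led at 31.5 ± 1.79 CPM per kb, and Igfbp7, at rank 5 in WT, was at rank 2 with 9.87 ± 0.316. Col4a2 (4.23 ± 0.441), Col4a1 (3.49 ± 0.341) and Fn1 (3.38 ± 0.194) followed, the last pair with overlapping libraries, and Hspg2 had moved to rank 6 at 2.79 ± 0.294. Tgfbi (1.05), Igfbp3 (0.634) and Tnc (0.0311) were lowest. When the longest annotated transcript was used as the length, Fn1 came at rank 3 with 4.75 CPM per kb, ahead of Col4a2 at 4.35, because its annotated exons span 11685 bases in all and its longest transcript 8315. Summed over the 9 genes, CPM ran from 177 to 181 in WT, 190 to 191 in Smad4 KO and 340 to 347 in Smad4 KO+TGFb. In the first library of each group, Hspg2 took 74.7% of this sum in WT and 12.6% with TGF-β, and Thbs1 took 20.9% and 54.1%.

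**Figure D3:**
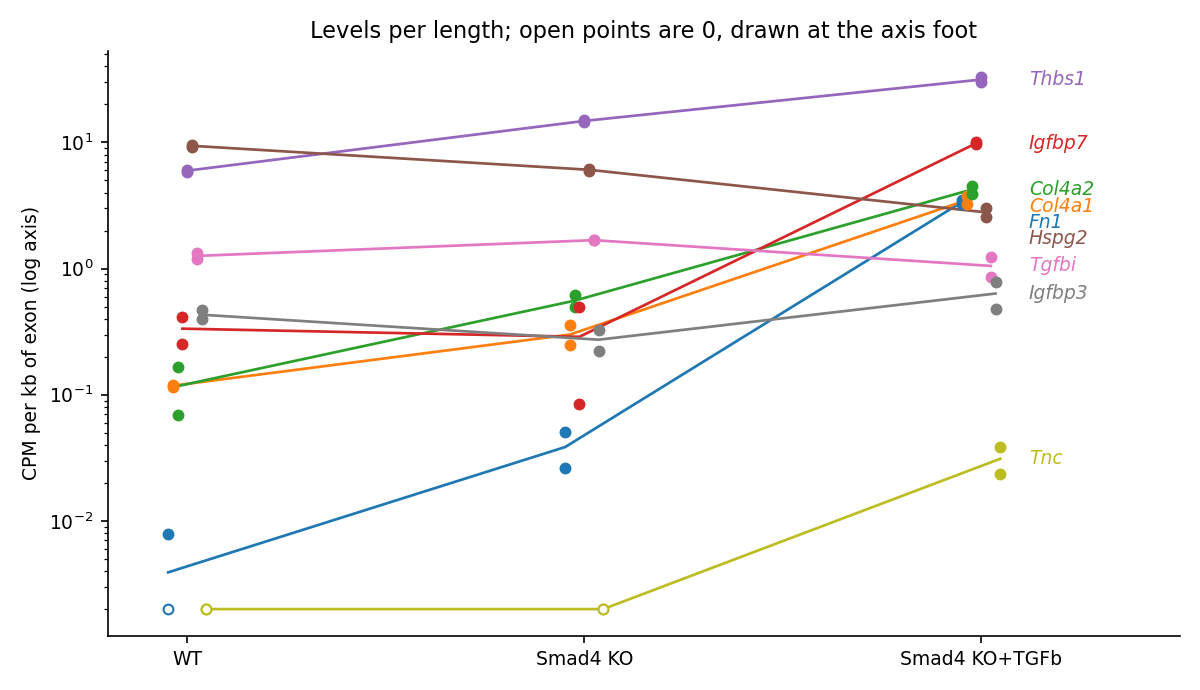
Level per kb of exon (vertical axis, CPM per kb, logarithmic) of the 9 genes in the 3 groups; points are libraries, lines join the means of 2, and open points are values of 0 placed at the foot of the axis. Hspg2 leads in WT at 9.4 CPM per kb and Thbs1 in the treated group at 31.5, and the Fn1 line climbs from 0.00391 to 3.38.

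Genes with the most similar course over the 6 libraries were found by the distance between scaled log2(CPM + 1) profiles among the 10307 to 10308 genes that averaged 5 CPM or more. With 3 groups and 6 libraries many genes share a course, so the likeness is a description. Each profile was divided by its SD, so the size of a change was not compared. For Fn1 they were S100a14, a calcium-binding protein of epithelia (Pearson r = 0.9996), the biliverdin reductase Blvrb (0.9996) and the myosin Myo1c (0.9993). Thbs1 was most like Crybg1, Washc4 and Nbeal2 (0.9992 to 0.9993). Among the genes closest to Col4a1 were Bmp8b and Zmynd15, and Col4a2 was closest to Ctrb1, Rab11fip5 and Cav2, whose mean rose from 1.29 CPM in WT to 4.43 in Smad4 KO and 30.1 with TGF-β. Igfbp7 was most like Slco3a1, the keratin Krt18 and Fbxo6, and Hspg2 most like Cers4, Slc11a2 and Rpl8. Sizes could differ widely: Rpl8 means were 1430, 1360 and 1210 CPM in WT, Smad4 KO and Smad4 KO+TGFb, and S100a14 means 21.8, 25.5 and 97.2. For Igfbp3 and Tgfbi the nearest profiles were farther off, at distances of 0.408 (Zdhhc18) and 0.305 (Miga2), against 0.0628 to 0.137 for the nearest of the other 6 genes.

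Other matrix genes were counted from lists taken from textbook knowledge. The lists were chosen with earlier results of these data known, so their counts and medians are a description and no independent test. Beside these counts, 16.3% of all genes tested passed with TGF-β against Smad4 KO, 7.78% higher and 8.48% lower. In Smad4 KO against WT, 30.3% of all genes passed, 16.9% higher and 13.4% lower. Of 26 further basement membrane genes 21 were tested, and with TGF-β against Smad4 KO 10 rose and 2 fell, with a median log2 fold change of 0.73. Lama3, the laminin α3 chain of epithelial anchorage, rose 16-fold (84.5 ± 0.813 and 5.29 ± 1.56 CPM, edgeR adjusted p = 8.45e-05). The laminin α5 chain Lama5 was 2.21-fold and the proteoglycan agrin (Agrn) 1.58-fold higher. In that list 7 genes rose and 4 fell in Smad4 KO against WT, with a median of 0.18. The linker protein nidogen 1 (Nid1) was 8.74-fold higher and Fras1 5.13-fold lower there (adjusted p = 0.000336 and 0.000123). The 2 list genes that fell with TGF-β, as Hspg2 did, were Smoc2, a calcium-binding matrix protein, at 1.9-fold lower (168 ± 10.1 and 320 ± 5.41 CPM, edgeR adjusted p = 0.000114) and Fras1 at 1.77-fold lower (adjusted p = 0.0159). Both were named here after their values were seen.

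Among 20 other matricellular genes, 10 were tested, and 4 rose and 1 fell with TGF-β against Smad4 KO (median 0.54, or 0.58 without genes at or under the floor in both groups). Osteopontin (Spp1), a secreted ligand of integrins, rose 96.4-fold (56 ± 1.25 and 0.579 ± 0.189 CPM, edgeR adjusted p = 6.76e-05). It was at 0 in WT. The treated level was 449 times the floor of 3 fragments over the WT group, and the 95% counting interval of the ratio to WT began at 364. Ccn2, also called connective tissue growth factor, was 4.3-fold higher with TGF-β and Fbln1, a basement membrane-associated fibulin, 1.61-fold lower. In Smad4 KO against WT, 4 rose and 0 fell (median 0.2). Of all genes, 16.3% passed with TGF-β against Smad4 KO and 30.3% in Smad4 KO against WT. The smallest of the 4 changes, Fbln1 at 1.14-fold, did not pass in any fit without 1 library or with a replicate block (adjusted p = 0.0577 to 0.134).

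Other members of the IGF-binding protein family that could be tested fell in Smad4 KO against WT. Of 5, Igfbp1 and Igfbp6 were at 0 in all libraries. Igfbp2, Igfbp4 and Igfbp5 were all lower in Smad4 KO than in WT (median -3.39, the value of Igfbp5), where 13.4% of all genes passed lower. Igfbp4 fell 2.72-fold (107 ± 3.65 and 291 ± 9.66 CPM, edgeR adjusted p = 7.52e-06). Igfbp2 stood at 4.48 ± 0.0407 CPM in WT and at 0.305 ± 0.432 in Smad4 KO (edgeR adjusted p = 0.0416). Its log2 fold change was -3.87 in all libraries and -2.87 without Smad4 KO replicate 2. It was -10.65 without Smad4 KO replicate 1, where the remaining Smad4 KO library was at 0, so that value is no measured size. The adjusted p of Igfbp2 was 0.12 to 0.128 without either WT library, 0.0629 to 0.0632 without either treated library, 0.0552 with the 4 libraries compared fitted alone and 0.0559 with a replicate block. Igfbp5 held 2 fragments in Smad4 KO, a ratio of 0.092 with an interval of 0.0107 to 0.371 (edgeR adjusted p = 0.0229), and did not pass without any 1 of the 4 libraries compared (adjusted p = 0.0793 to 0.133). With TGF-β against Smad4 KO, 1 rose, Igfbp4 at 1.48-fold (edgeR adjusted p = 0.000744), where 7.78% of all genes passed higher. The median was 1.43, which is the value of Igfbp5 on 6 and 2 fragments. Igfbp2 and Igfbp5 did not pass there (edgeR adjusted p = 0.455 and 0.306).

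Of 23 matrix receptors 21 were tested, and 14 rose and 1 fell with TGF-β against Smad4 KO, with a median log2 fold change of 0.43. The integrin chains Itga2 and Itgb4 were 1.82-fold and 1.58-fold higher and the collagen receptor Ddr1 1.79-fold higher (adjusted p = 0.000109, 0.000167 and 0.000191). In Smad4 KO against WT, 6 rose and 1 fell (median 0.03), with Itga3 1.97-fold and Itgb5 3.02-fold higher. That share is near the 30.3% of all genes that passed there. With TGF-β against Smad4 KO, 16.3% of all genes passed.

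Genes that modify and crosslink collagen did not follow type IV collagen as a group. Of 19, 14 were tested, and with TGF-β against Smad4 KO 3 rose and 3 fell (median 0.17). P4ha1, a subunit of the enzyme that hydroxylates proline in collagen, was 1.49-fold lower (edgeR adjusted p = 0.0054). Colgalt1, which adds galactose to collagen, was 2.48-fold higher (edgeR adjusted p = 0.0133). Its Smad4 KO libraries lay apart, at 134.2 and 75.65 CPM, against 257.4 and 261.9 CPM with TGF-β. The Colgalt1 log2 fold change ran from 0.953 to 1.78 when 1 library was left out. Without treated replicate 1 or 2 the Colgalt1 call was lost (adjusted p = 0.0575 and 0.0587). The procollagen protease Bmp1 was 2.17-fold higher (adjusted p = 0.0115, and 0.0652 without treated replicate 2). In Smad4 KO against WT, 2 rose and 4 fell (median -0.21). Among them were Plod2, a lysyl hydroxylase, 2.82-fold lower, and the peroxidase Pxdn, which crosslinks type IV collagen, 4.7-fold higher. Of all genes, 16.3% passed with TGF-β against Smad4 KO and 30.3% in Smad4 KO against WT.

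Of 22 proteases and inhibitors that break down matrix 14 were tested, and 7 rose and 0 fell with TGF-β against Smad4 KO (median 1.05). The urokinase receptor Plaur was 2.34-fold, the plasminogen activator Plat 2.33-fold and the matrix metalloproteinase Mmp7 1.85-fold higher (adjusted p = 3e-04, 0.00123 and 0.00043). In Smad4 KO against WT, 4 rose and 2 fell (median 0.09). Of all genes, 16.3% passed with TGF-β against Smad4 KO and 30.3% in Smad4 KO against WT.

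**Figure D4:**
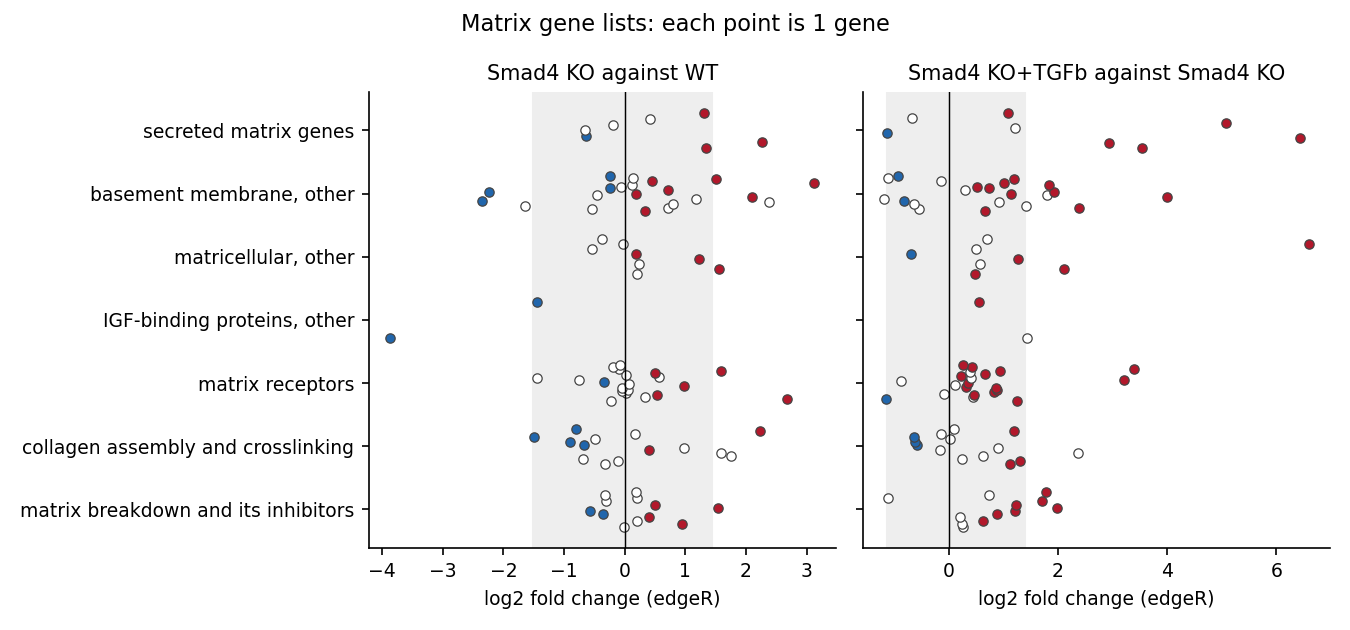
Log2 fold change (horizontal axis, edgeR) of each tested gene with at least 3 fragments in both groups, by list, for Smad4 KO against WT and Smad4 KO+TGFb against Smad4 KO; red and blue points passed higher and lower, and white points did not pass. The grey band runs from the 5th to the 95th percentile of all genes, -1.13 to 1.39 on the right, and Fn1, Igfbp7, Col4a1 and Col4a2 lie beyond it there.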

How the data were processed

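The authors deposited estimated counts, whole numbers by Ensembl gene and library. The submitters' processing notes name StringTie 1.3.3b, SAMtools 1.9, HISAT2 2.1.0 and FastQC 0.11.9, and the build GRCm38 (mm10). For the annotation release, the strand setting and the step to whole numbers, the sources used here give nothing. Of values from 1 to 24, 42.3% were multiples of 4, so about 4 units per fragment is an inference. Samples were grouped by title. Genes were filtered with filterByExpr, which left 15503, and scaled by TMM. edgeR 4.0.16 (glmQLFit, glmQLFTest, 2-sided, group the only term, all 6 libraries, 3 residual degrees of freedom) was used with Benjamini-Hochberg adjustment over all genes and a threshold of 0.05. SEs are the log2 fold change over the root of F. Ratios of low counts carry exact Clopper-Pearson intervals. Positions and exon lengths come from GENCODE vM21. Named list genes were, per list and comparison, up to 3 that passed with the smallest adjusted p and at least 1 CPM in the higher group, and for each of the 9 genes above 1 CPM the 3 most alike in course. Part of this selection is not reported here. A search of the proteins for the RGD tripeptide was planned and not run, and proteins were not analysed here. The genes and lists were chosen with earlier results of these data known. The fits were tested on simulated data. Alternatives were RLE scaling, DESeq2 1.42.0, no filter, the 4 libraries compared, a replicate block, values divided by 4, and leaving out each library.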

Additional observations from a re-analysis of the deposited data

How the results depend on the processing

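Each of the 24 fold changes of the 8 tested genes was recomputed under 12 alternatives: 282 kept their direction and side of the threshold, 4 lost the call and 2 changed sign. The 4 lost calls were Fn1 and Col4a1 in Smad4 KO against WT, given with their values above. The sign changes were in Igfbp7, Smad4 KO against WT, which gave -0.19 with all libraries, 0.19 leaving out WT replicate 2, and from -1.94 to 0.57 when a single Smad4 KO library was left out; none of these passed, and the cause was not tested. The number of the 9 genes passing in Smad4 KO against WT was 5, and 3 when the 4 libraries compared were fitted alone, where fewer libraries set the spread. Leaving out 1 library gave 4 to 5 in that comparison and 6 in each of the other comparisons. Genes passing overall were 4704, 2521 and 6155 for Smad4 KO against WT, treated against Smad4 KO and treated against WT, in this order. Without 1 library these ran from 3231 to 4305, 1504 to 2304 and 4554 to 6012; the second count was 1630 without Smad4 KO replicate 2 and 1504 and 1534 without treated replicate 1 and 2. Of the 50 fold changes of named list genes, 578 recomputed values kept their call and 22 lost it, in Igfbp2, Igfbp5, Fbln1, Colgalt1 and Bmp1. DESeq2 ended the call of Igfbp2 (adjusted p = 0.084). Same-numbered replicates share a number but no stated source, and their deviations correlated at 0.001 to 0.014 across groups. A replicate block left 4184, 2153 and 5667 genes and ended no call of the 9 genes; it ended those of Igfbp5 (adjusted p = 0.05), Igfbp2 and Fbln1. The longest transcript as length moved 9 of 27 levels per kb by more than 1 SD. Depth limits Tnc, Fn1 in untreated groups and Igfbp7 in untreated groups, which rest on fewer than 12 fragments per group.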
